A study of Mus musculus with 2 samples.

Results

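The 41 genes described here were a fixed set of cell cycle genes, 14 of S phase, when DNA is copied, and 27 of M phase, when the copied chromosomes are condensed and separated. They were chosen by symbol from a list, not by how they behaved, and all 41 were found among the 27998 genes of the deposited tables. They were followed in single cells from lungs of C57Bl6 mice that received bleomycin, which injures the lung and leads to fibrosis, on day 1. One group then had vehicle and the other navitoclax (ABT-263), which blocks BCL-2, BCL-XL and BCL-W, proteins that keep cells from apoptosis, from day 15 to day 20, and lungs were taken on day 21. Both groups were injured, so there was no uninjured group. Epithelial and stromal cells were flow-sorted and combined in equal parts before capture, so the ratio of the 2 kinds carries no information. Each group was 1 library, and the sources used here give neither the age of the mice nor how many went into a library.

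Cell cycle genes are transcribed in waves. E2F factors drive genes for DNA synthesis as a cell enters S phase, and a later wave, driven by MuvB complexes with B-MYB and FOXM1 and held down by the DREAM complex in resting cells, brings up the genes of mitosis. In the adult lung most cells are resting. After injury, alveolar type II (AT2) cells, which make surfactant, divide and give rise to type I (AT1) cells, and fibroblasts can also divide.

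In AT2-like cells of these lungs, most of the M phase genes were carried mainly by very few cells. Among AT2-like cells, 10 of the 27 M phase genes had at least 80% of their UMIs (unique molecular identifiers, counted transcripts) in the 1% of cells that were richest in the other M phase genes, in both libraries. Only 11 vehicle and 19 navitoclax AT2-like cells held 8 or more different M phase genes, yet these cells carried 22.1% and 33.2% of the summed M phase UMIs. Other genes were spread more widely. Bub1, Hmgb2 and Smc4 of the M phase set had under 20% of their UMIs in the top cells of both libraries. So did 7 of the 14 S phase genes, for which the top cells were those richest in the other S phase genes. Hmgb2 was seen in as many as 2126 AT2-like cells. Fibroblast-like cells held fewer UMIs each. There 16 M phase genes had at least 20 UMIs in each library, and 2 of them had at least 50% in the top cells of both. Of the 41 genes, 38 had a higher level in AT2-like cells of the navitoclax library, as did 52.9% of all 13547 genes. By over 1.5-fold, 12 were higher, where 6.11% of all genes were. These genes shared their few cells. Without the cells holding 8 or more M phase genes, 7 of the 12 stayed past the fold. The ratio of the summed M phase level then went from 1.06 to 0.917. In fibroblast-like cells, with all cells counted, 22 of 39 genes were higher and 17 lower, where 51.3% of all 13558 genes were higher.

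The libraries held 97958947 UMIs in 8784 barcodes (vehicle) and 98517048 in 8064 (navitoclax). After filters, 7174 and 6228 cells were used, with medians of 10483 and 12588 UMIs per cell. Only 13 barcodes occurred in the used cells of both libraries, none in a cell with 8 or more M phase genes. Cells were gated by marker genes into 10 classes. The largest were AT2-like, with 2866 vehicle and 2598 navitoclax cells, and fibroblast-like, with 3229 and 2664. Of these, 25 and 35 AT2-like and 103 and 105 fibroblast-like cells lay close to the gate's margin. All 6 AT2 markers were present in the AT2-like cells, at a summed 270046 and 276014 UMIs per 1e6 UMIs of the class (CPM), against 2227 and 2588 CPM in fibroblast-like cells. All 6 fibroblast markers summed to 12772 and 13376 CPM in fibroblast-like cells and to 82.4 and 105.7 CPM in AT2-like cells. The 7 immune markers summed to 79.9 and 79.1 CPM in AT2-like cells and to 5.24 and 8.22 CPM in fibroblast-like cells. Since each group was a single library, the treatments could not be tested against each other. Intervals are exact 95% intervals that cover counting error only, not differences between mice or preparations, and no value has a replicate check. Those of levels, ratios and shares of UMIs treat each UMI as a separate draw, so they also leave out which cells were captured. Levels count UMIs at the 3′ end and were not divided by gene length. The genes' summed levels in a class mix the number of cells that express a gene and the RNA per cell.

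Because the M phase genes peaked in the same cells, the DNA next to their start sites is shown for the 3 S phase and 3 M phase genes with the most UMIs among those that held a searched motif. Sequences are from the RefSeq promoter table (GRCm38.p6), which held 34 of the 41 genes, and run 5′ to 3′ on the gene's strand from 250 bases before to 30 bases after the annotated start. The motifs searched, on both strands, were the CHR element of mitotic promoters (TTTGAA or TTTAAA), the CCAAT box, and E2F sites (TTTGGCGC, TTTCGCGC or TTCCCGCC). Capitals mark them. The windows were Pcna at chr2:132253151-132253430 on the minus strand, Rrm1 at chr7:102441445-102441724 on the plus strand, Mcm7 at chr5:138171854-138172133 on the minus strand, Hmgb2 at chr8:57511593-57511872 on the plus strand, Cdc20 at chr4:118437314-118437593 on the minus strand, Prc1 at chr7:80294201-80294480 on the plus strand.
Pcna: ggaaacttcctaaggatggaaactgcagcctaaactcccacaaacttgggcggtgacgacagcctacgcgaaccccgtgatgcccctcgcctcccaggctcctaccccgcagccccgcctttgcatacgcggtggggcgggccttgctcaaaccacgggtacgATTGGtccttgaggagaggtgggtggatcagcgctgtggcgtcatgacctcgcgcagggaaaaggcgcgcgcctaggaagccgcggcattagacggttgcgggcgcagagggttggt
Rrm1: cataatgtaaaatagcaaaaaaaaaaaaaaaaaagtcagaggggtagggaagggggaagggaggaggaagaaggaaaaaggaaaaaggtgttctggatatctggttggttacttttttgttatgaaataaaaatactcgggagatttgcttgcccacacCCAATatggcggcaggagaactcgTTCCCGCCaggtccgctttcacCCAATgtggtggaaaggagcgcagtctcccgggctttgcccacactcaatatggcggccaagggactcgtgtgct
Mcm7: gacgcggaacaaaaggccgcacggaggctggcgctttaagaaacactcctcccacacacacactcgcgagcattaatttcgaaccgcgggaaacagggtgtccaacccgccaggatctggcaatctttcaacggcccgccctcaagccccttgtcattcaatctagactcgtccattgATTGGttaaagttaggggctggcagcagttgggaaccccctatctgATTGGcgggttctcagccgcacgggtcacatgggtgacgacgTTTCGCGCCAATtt
Hmgb2: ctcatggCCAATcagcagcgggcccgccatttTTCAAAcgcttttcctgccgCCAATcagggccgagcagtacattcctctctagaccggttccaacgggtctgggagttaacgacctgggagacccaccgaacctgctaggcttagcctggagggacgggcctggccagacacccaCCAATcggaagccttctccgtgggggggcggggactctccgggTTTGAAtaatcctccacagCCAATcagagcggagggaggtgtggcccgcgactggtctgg
Cdc20: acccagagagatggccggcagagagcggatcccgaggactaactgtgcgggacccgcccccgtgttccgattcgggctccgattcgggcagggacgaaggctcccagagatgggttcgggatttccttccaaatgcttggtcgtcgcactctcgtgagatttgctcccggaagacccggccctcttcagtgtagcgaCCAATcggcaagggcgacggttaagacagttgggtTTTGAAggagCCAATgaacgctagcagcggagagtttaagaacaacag
Prc1: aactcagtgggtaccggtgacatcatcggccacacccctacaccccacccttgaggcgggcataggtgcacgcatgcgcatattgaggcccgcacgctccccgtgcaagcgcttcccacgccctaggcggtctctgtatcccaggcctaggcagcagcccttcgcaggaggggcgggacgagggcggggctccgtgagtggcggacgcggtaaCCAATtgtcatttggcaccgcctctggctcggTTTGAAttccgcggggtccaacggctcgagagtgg

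The Hmgb2 window held 4 CCAAT boxes and 2 TTTGAA elements. In Cdc20 and Prc1 a TTTGAA element lay 18 and 5 bases before the start, with a CCAAT box 53 and 37 bases before it. In Rrm1 an E2F site began 67 bases before the start. In Mcm7 an E2F site began 16 bases after it, with its last base shared with a CCAAT box. The Pcna window held a CCAAT box alone, 87 bases before the start, read on the opposite strand.

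Across full 300-base windows, 21 of the 23 M phase genes in the table (91.3%) held a CHR element, against 5 of 11 S phase genes (45.5%) and 30.6% of all 27025 genes. A CHR element together with a CCAAT box was found in 19 of 23 M phase genes (82.6%), in 3 of 11 S phase genes (27.3%: Mcm2, Mcm5 and Rrm2) and in 12.2% of all genes. CCAAT alone was common, at 87.0% of M phase genes, 72.7% of S phase genes and 41.1% of all genes. E2F sites ran the other way, with 5 of 11 S phase genes (45.5%: Mcm3, Mcm5, Mcm6, Mcm7 and Rrm1), 1 of 23 M phase genes (4.35%: Cdk1) and 3.39% of all genes. These are matches of letters in a window and were not tied to binding. The 2 M phase genes of the table with no CHR match were Bub1 and Nusap1. Bub1 was among the least concentrated M phase genes in AT2-like cells and Nusap1 among the most.

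Summed levels of the S phase genes were alike in the large classes. They were 88.6 CPM (86.1 to 91.2) in vehicle and 98.3 (95.6 to 101.0) in navitoclax AT2-like cells, 91.8 (88.2 to 95.6) and 95.2 (91.3 to 99.2) in fibroblast-like cells, and 94.5 (85.1 to 104.6) and 100.6 (92.4 to 109.2) in ciliated-like cells. The M phase sum was highest in ciliated-like cells among these 3 classes, at 232.7 CPM (217.8 to 248.3) and 224.5 (212.2 to 237.2), then AT2-like cells at 190.9 (187.2 to 194.7) and 203.0 (199.1 to 206.8), then fibroblast-like cells at 125.0 (120.7 to 129.4) and 121.3 (116.9 to 125.8). That order was set mostly by Hmgb2, a DNA-bending chromatin protein, and Smc4, a condensin subunit. Together these 2 genes made up 82.8% and 78.5% of the M phase sum in ciliated-like cells, 65.9% and 57.7% in AT2-like cells and 65.4% and 63.4% in fibroblast-like cells.

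**Figure D1:**
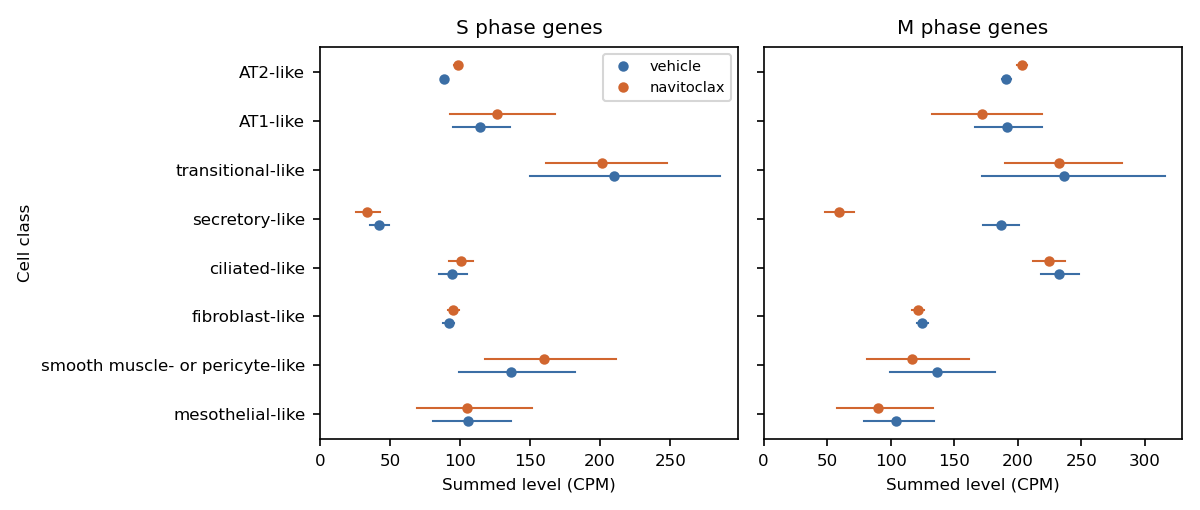
Summed level of the 14 S phase genes (left) and the 27 M phase genes (right), in CPM, by cell class (vertical axis) and library (colour). Points are sums over all cells of a class and lines are exact Poisson 95% intervals; the M phase sum of vehicle secretory-like cells, 186.6 CPM, stands apart from the 59.0 CPM of navitoclax ones.

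The smaller classes had wide intervals. Transitional-like cells, which express keratin 8 and related genes after injury, had S phase sums of 209.7 CPM (149.8 to 285.6) in 14 vehicle cells and 201.0 (161.4 to 247.3) in 23 navitoclax cells. Both lower bounds lay above the S phase sums of AT2-like cells in the same library. AT1-like cells had S phase sums of 114.2 (95.2 to 135.8) and 126.1 (92.6 to 167.6). Secretory-like cells had the lowest S phase sums of the classes with at least 20 cells in each library, 42.2 CPM (35.8 to 49.4) and 33.5 (25.7 to 42.8). They were also the deepest cells, with medians of 56946 and 55581 UMIs. Their 7 secretory markers summed to 638913 and 636006 CPM, which lowers the CPM of all other genes. S phase UMIs per cell were 2.35 and 1.80 there, against 1.61 and 2.01 in AT2-like and 0.733 and 0.843 in fibroblast-like cells. Among fibroblast-like subclasses, the S phase sum was 85.6 and 85.1 CPM in alveolar cells, 109.1 and 121.4 in adventitial cells and 105.2 and 136.8 in peribronchial cells.

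How few cells carried a gene was measured as the share of its UMIs in the 1% of cells richest in the other genes of its group, so that a gene did not rank its own cells. In AT2-like cells this was 29 vehicle and 26 navitoclax cells, which held 1.71% and 1.75% of all UMIs of the class when ranked by the M phase sum. Over 12281 genes outside the set the median share in those cells was 1.82% and 1.94%. The mitotic genes lay far above that.

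**Figure D2:**
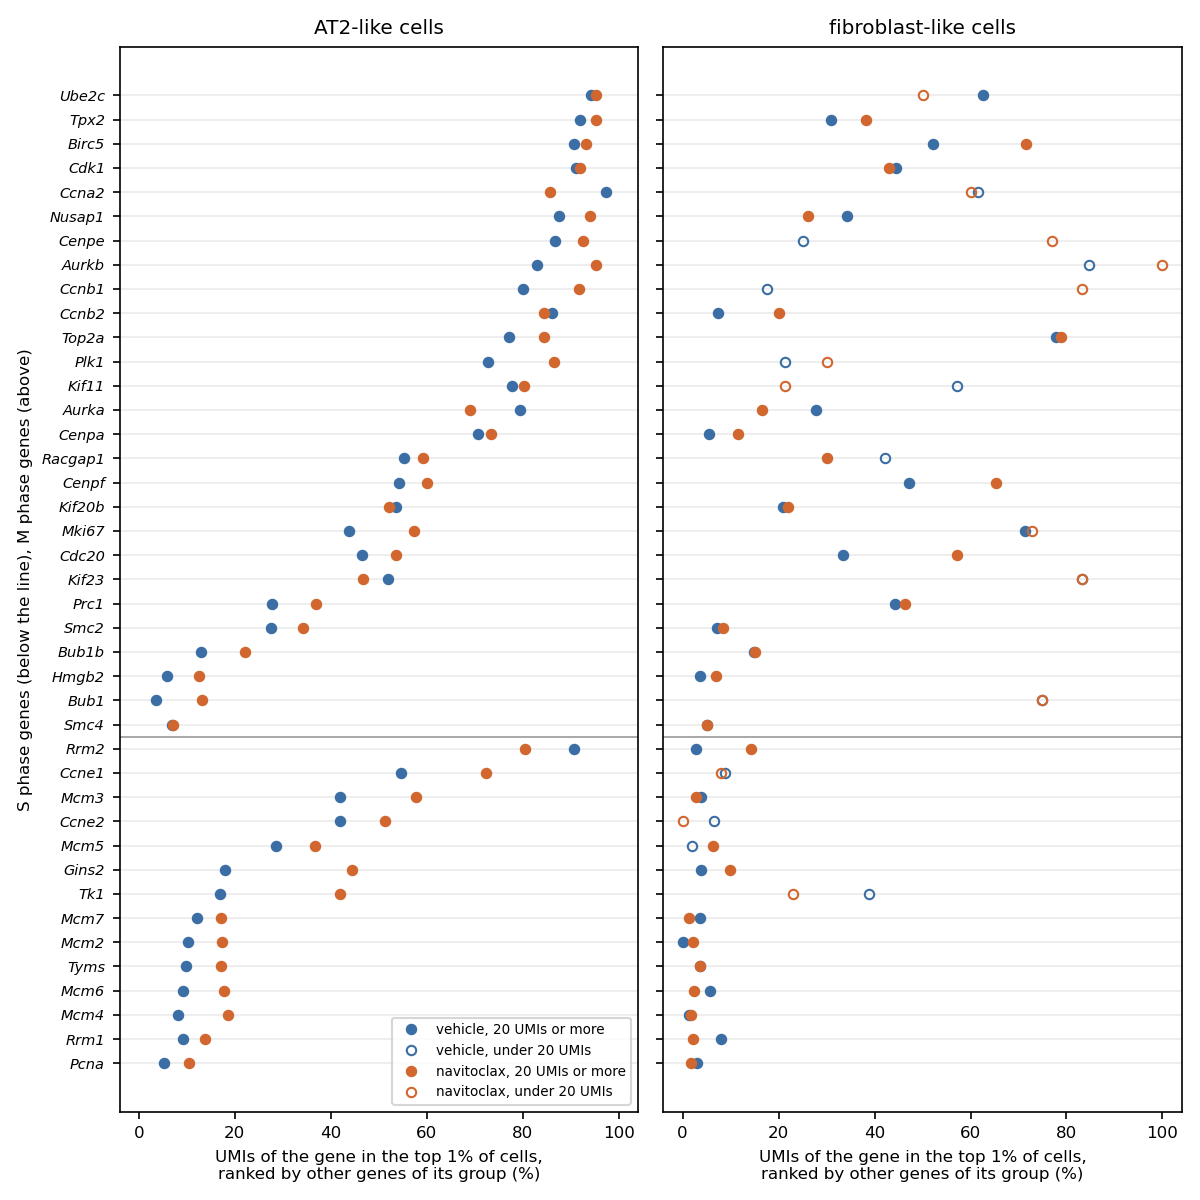
Share of each gene's UMIs (horizontal axis, %) in the 1% of cells with the most UMIs of the other genes of its group, in AT2-like cells (left) and fibroblast-like cells (right); filled points have at least 20 UMIs in that library and open points fewer, and colours are libraries. In AT2-like cells the M phase genes run from 3.66% (Bub1, vehicle) to 97.4% (Ccna2, vehicle), while in fibroblast-like cells Cenpa, Ccnb2 and Smc2 lie far to the left of their highest M phase neighbours.

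Ube2c, the E2 ubiquitin-conjugating enzyme of the anaphase-promoting complex, had the highest such share when the lower of the 2 libraries is taken. Its 332 vehicle UMIs lay in 22 of 2866 AT2-like cells, 98 of them in 1 cell, and its 402 navitoclax UMIs in 30 of 2598 cells, 122 in 1 cell. The share in the top 1% by other genes was 94.3% and 95.2%. Tpx2, which activates Aurora A on the spindle, had 92.0% and 95.3% there, from 50 UMIs in 9 cells and 64 UMIs in 12 cells. Cdk1, the kinase that drives entry into mitosis, had 91.2% and 92.0%, from 148 UMIs in 22 cells and 269 in 37. Birc5 (survivin), of the chromosomal passenger complex, had 90.7% and 93.2%, and Nusap1, a spindle microtubule protein, 87.5% and 94.0%. Cenpe, a kinetochore motor, had 86.8% and 92.6%. The cyclins Ccna2 (97.4% and 85.7%), Ccnb2 (86.0% and 84.5%) and Ccnb1 (80% and 91.7%) and the kinase Aurkb (83.0% and 95.3%) complete the 10 genes at or above 80% in both libraries.

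A further 8 M phase genes had between 50% and 80% in at least 1 library and no less than 50% in either. These were the motors Kif11 (77.8% and 80.3%) and Kif20b (53.6% and 52.2%), topoisomerase Top2a (77.1% and 84.4%), the kinases Plk1 (72.7% and 86.5%) and Aurka (79.5% and 69.0%), the centromere proteins Cenpa (70.6% and 73.3%) and Cenpf (54.2% and 60.2%), and Racgap1 (55.3% and 59.2%), which acts in cytokinesis. Mki67, the gene of the Ki-67 proliferation antigen, was lower on this scale, at 43.8% and 57.4%, with UMIs in 119 and 137 cells. Cdc20, an activator of the anaphase-promoting complex, had 46.5% and 53.5%, with UMIs in 230 and 228 cells. Kif23, Racgap1's partner, had 51.9% and 46.8%. Both Mki67 and Cdc20 thus had many cells with single UMIs beside the few rich ones.

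The other M phase genes were more widely spread. Prc1, a midzone bundling protein, had 27.7% and 37.0% of its UMIs in the top cells, and the condensin Smc2 27.6% and 34.3%. The spindle checkpoint kinases were low, with 13.0% and 22.1% for Bub1b and 3.66% and 13.1% for Bub1. Bub1 was seen in 200 and 212 AT2-like cells, at 273 and 297 UMIs. Its share in the top cells was below that of Kif20b, although Kif20b was seen in only 30 and 39 cells. Hmgb2 was seen in 2126 and 1889 AT2-like cells and had 5.94% and 12.5% in the top cells. Smc4 was seen in 1029 and 1001 cells and had 6.97% and 7.19%.

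Among the S phase genes, which were ranked by the other S phase genes, only 2 had at least 50% in both libraries. Rrm2, the small subunit of ribonucleotide reductase, had 90.6% and 80.6%, from 64 UMIs in 11 cells and 108 in 31. Ccne1 (cyclin E1) had 54.5% and 72.4%, from 22 and 29 UMIs. In contrast Rrm1, the large subunit of the same enzyme, was seen in 367 and 356 cells and had 9.15% and 13.9%. The replication clamp Pcna was seen in 1257 and 1208 cells (5.16% and 10.4%) and the thymidylate synthase gene Tyms in 524 and 553 (9.88% and 17.2%). Within the MCM helicase the subunits were unequal, with 42.0% and 57.7% for Mcm3 and 28.6% and 36.6% for Mcm5, against 10.3% and 17.3% for Mcm2, 8.13% and 18.6% for Mcm4, 9.17% and 17.8% for Mcm6 and 12.1% and 17.1% for Mcm7. Gins2, a helicase cofactor, had 18.04% and 44.4%, the thymidine kinase Tk1 16.9% and 42.0%, and Ccne2 (cyclin E2) 41.9% and 51.2%.

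In fibroblast-like cells the shares in the top cells were lower before depth was equalised. The 1% of cells with the most M phase UMIs held 15.0% of them (13.8 to 16.3) in vehicle and 18.8% (17.4 to 20.3) in navitoclax, against 24.3% (23.4 to 25.1) and 34.3% (33.4 to 35.2) in AT2-like cells. For the S phase genes the shares were 7.95% and 7.26% in fibroblast-like and 12.3% and 19.6% in AT2-like cells. Fibroblast-like cells were also shallower, with medians of 7613 and 8333 UMIs against 17818 and 19600. With each cell thinned to 2000 UMIs the M phase shares were 15.3% (12.8 to 18.1) and 20.2% (17.0 to 23.6) in fibroblast-like and 18.5% (16.1 to 21.1) and 25.1% (22.3 to 28.02) in AT2-like cells, and the intervals of the classes overlapped in each library. Only Top2a (77.8% and 78.8%) and Birc5 (52.2% and 71.6%) had at least 50% of their UMIs in the top fibroblast-like cells in both libraries, of the 16 M phase genes with at least 20 UMIs in each.

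Several genes had unlike shares in the 2 classes, a difference that was not tested. Cenpa, the centromeric histone, lay in 216 and 153 fibroblast-like cells, with 5.48% and 11.5% in the top cells, against 44 and 53 AT2-like cells with 70.6% and 73.3%. Its level was also higher in fibroblast-like cells, 9.82 and 7.80 CPM against 2.42 and 3.10 CPM. Ccnb2 lay in 103 and 77 fibroblast-like cells (7.41% and 20.0%) and in 19 and 35 AT2-like cells (86.0% and 84.5%). Rrm2 was found in 35 vehicle fibroblast-like cells at 1 UMI each, and its share in the top cells was 2.86% and 14.3%. Bub1 went the other way, with 4 UMIs in each library among fibroblast-like cells, at 0.155 and 0.170 CPM, against 5.24 and 5.58 CPM in AT2-like cells. Free RNA was not subtracted, and its part in such scattered single UMIs was not tested.

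In ciliated-like cells, which are multiciliated and do not divide, 2 M phase genes beside Hmgb2 and Smc4 are described, both picked after their values were seen. Kif23, at 12.3 CPM in vehicle and 7.31 in navitoclax, lay in 39 and 37 cells with at most 3 UMIs each. Its level in AT2-like cells was 1.48 and 1.77 CPM. Kif11 had 2.56 and 3.21 CPM there, and 0.519 and 1.33 CPM in AT2-like cells. The share of Kif23 in the top cells was 10.4% and 4.88%, so its UMIs were spread over cells that had few other M phase genes. Hmgb2 reached 153.3 and 143.2 CPM there, its highest level in the 3 large classes.

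The cells that carried the mitotic transcripts were then looked at one by one. A bound of 8 different M phase genes was set after the counts per cell had been seen. The counts had a long tail. AT2-like cells with 25 or more of the 27 genes numbered 5 in vehicle and 7 in navitoclax.

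**Figure D3:**
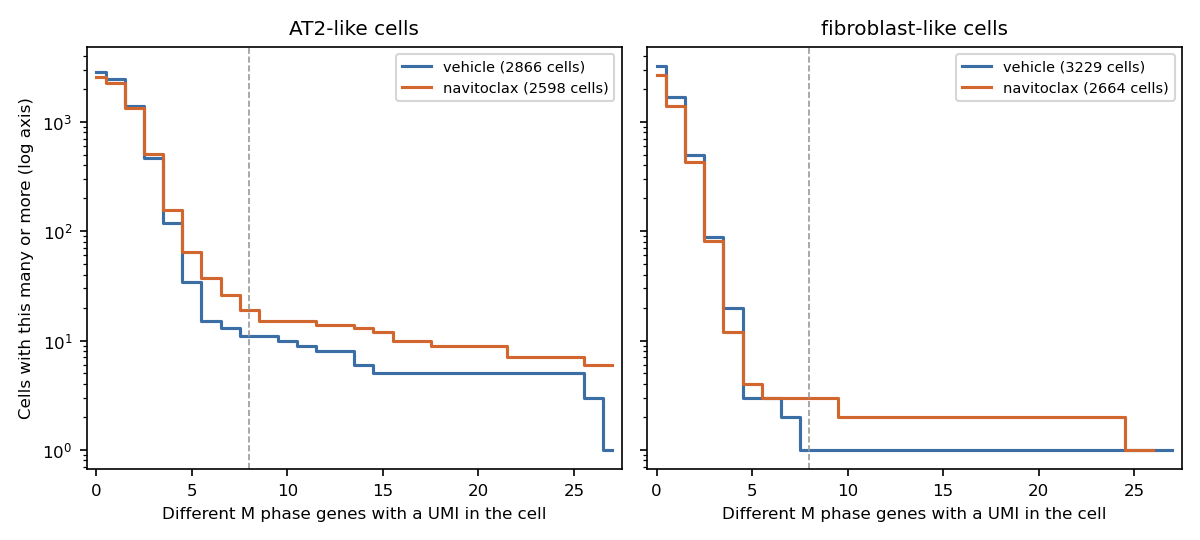
Number of cells (vertical axis, log) that held at least the given number of different M phase genes (horizontal axis), in AT2-like cells (left) and fibroblast-like cells (right), by library. The dashed line marks 8 genes, reached by 11 vehicle and 19 navitoclax AT2-like cells and by 1 and 3 fibroblast-like cells.

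Of the 40 cells with 8 or more M phase genes, 30 were AT2-like, 4 fibroblast-like, 2 ciliated-like, 1 secretory-like and 3 without a class. AT2-like cells of this kind made up 0.384% (0.192 to 0.686) of the class in vehicle and 0.731% (0.441 to 1.14) in navitoclax, a difference of 0.348 percentage points (−0.0528 to 0.789). They had more UMIs than other AT2-like cells, with medians of 33866 and 33510 against 17795 and 19556. Over all classes, Scrublet had called 0 vehicle and 2 navitoclax cells with 8 or more M phase genes as doublets, which were left out.

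As the gate required, all 30 AT2-like cells of this kind held AT2 markers, between 708 and 12632 UMIs per cell. They held at most 10 UMIs of the 7 immune markers. One cell of each library also held many UMIs of secretory markers, 1644 in vehicle and 4362 in navitoclax, and another vehicle cell had 30 UMIs of fibroblast markers. Of ciliated markers, the same navitoclax cell held 106 UMIs. Another navitoclax cell, with 475 M phase UMIs, held 109, against at most 8 in the remaining cells of this kind. Whether these barcodes were mixed cells was not tested. Identity genes that the gate had not used were present in all 30 cells, mostly at a lower level than in the other AT2-like cells. The lipid transporter gene Abca3 was at 354.3 CPM against 819.0 in vehicle and at 449.5 against 807.1 in navitoclax. Cxcl15, a chemokine gene of lung epithelium, was at 3850 against 8787 and at 6996 against 9644. Chil1 was at 666.9 against 2182 and at 1355 against 2611. Sftpd, for surfactant protein D, was the exception, at 8259 against 5358 and at 6944 against 5499. Lower CPM in cells that hold more UMIs need not be fewer transcripts per cell.

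The rich AT2-like cells differed in their S phase genes. In vehicle, 1 cell had 143 S phase and 197 M phase UMIs and another 87 and 66, while the 4 cells with the most M phase UMIs, 314, 374, 502 and 602, had only 10, 7, 13 and 19 S phase UMIs. In navitoclax, 2 cells had 136 and 110 S phase UMIs with 133 and 120 M phase UMIs, and 3 had 74, 77 and 78 S phase UMIs with 448, 475 and 484 M phase UMIs. The navitoclax cell with the most M phase UMIs, 685, had 29 S phase UMIs, and 2 further cells, with 327 and 492, had 7 and 4. In each library the cell with the most S phase UMIs was not the one with the most M phase UMIs. Cells with 5 or more S phase genes and under 8 M phase genes numbered 19 in vehicle (0.663%, 0.400 to 1.03) and 36 in navitoclax (1.39%, 0.972 to 1.91) among AT2-like cells, a difference of 0.723 percentage points (0.190 to 1.30). In fibroblast-like cells they numbered 6 and 6. These counts were taken before thinning, and navitoclax AT2-like cells were the deeper ones, with medians of 19600 against 17818 UMIs. The interval of the difference counts cells of 1 library per group and does not cover mice or preparations.

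**Figure D4:**
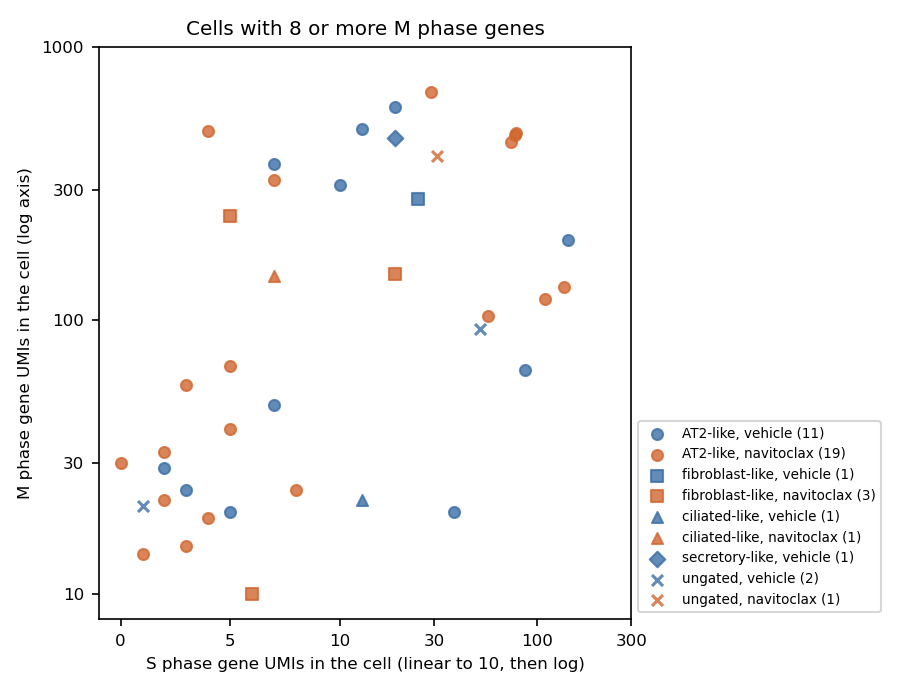
The 40 cells with 8 or more M phase genes, by their S phase UMIs (horizontal axis, linear to 10 and log above) and M phase UMIs (vertical axis, log); symbols are cell classes and colours libraries. Cells with over 100 S phase UMIs have between 120 and 197 M phase UMIs, and the cell with the most M phase UMIs has 685.

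These counts of genes per cell depend on depth. With each cell thinned to 2000 UMIs, 11 of 2806 vehicle AT2-like cells (0.392%, 0.196 to 0.700) and 14 of 2551 navitoclax ones (0.549%, 0.300 to 0.919) held at least 3 M phase genes, and 60 and 47 shallower cells were left out. Before thinning the shares were 16.2% and 19.5%. In fibroblast-like cells the thinned shares were 0.130% (0.0353 to 0.331), 4 of 3088, and 0.158% (0.0431 to 0.404), 4 of 2531, with 141 and 133 cells left out, and 2.73% and 3.08% before thinning. For at least 3 S phase genes the thinned counts were 6 of 2806 (0.214%, 0.0785 to 0.465) and 15 of 2551 (0.588%, 0.329 to 0.968) AT2-like cells, and 3 of 3088 and 2 of 2531 fibroblast-like cells. The counting intervals of the libraries overlap for each of these 4 pairs.

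The comparison of the libraries asks whether cell cycle transcripts differed after navitoclax. In AT2-like cells all 41 genes had at least 20 UMIs over both libraries, 38 were higher in the navitoclax library, and 12 were higher by over 1.5-fold, where 6.11% of all 13547 genes were. None was lower by that fold, against 1.96% of all genes. The median log2 ratio was 0.36 over the 41 genes and 0.01 over all genes, of which 52.9% were higher. The counting interval lay above 1 for 19 genes and below 1 for 2. These intervals take each UMI as a separate draw, so they are too narrow for genes whose UMIs lie in few cells. Since the 41 genes share their few cells, they are not independent of each other.

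**Figure D5:**
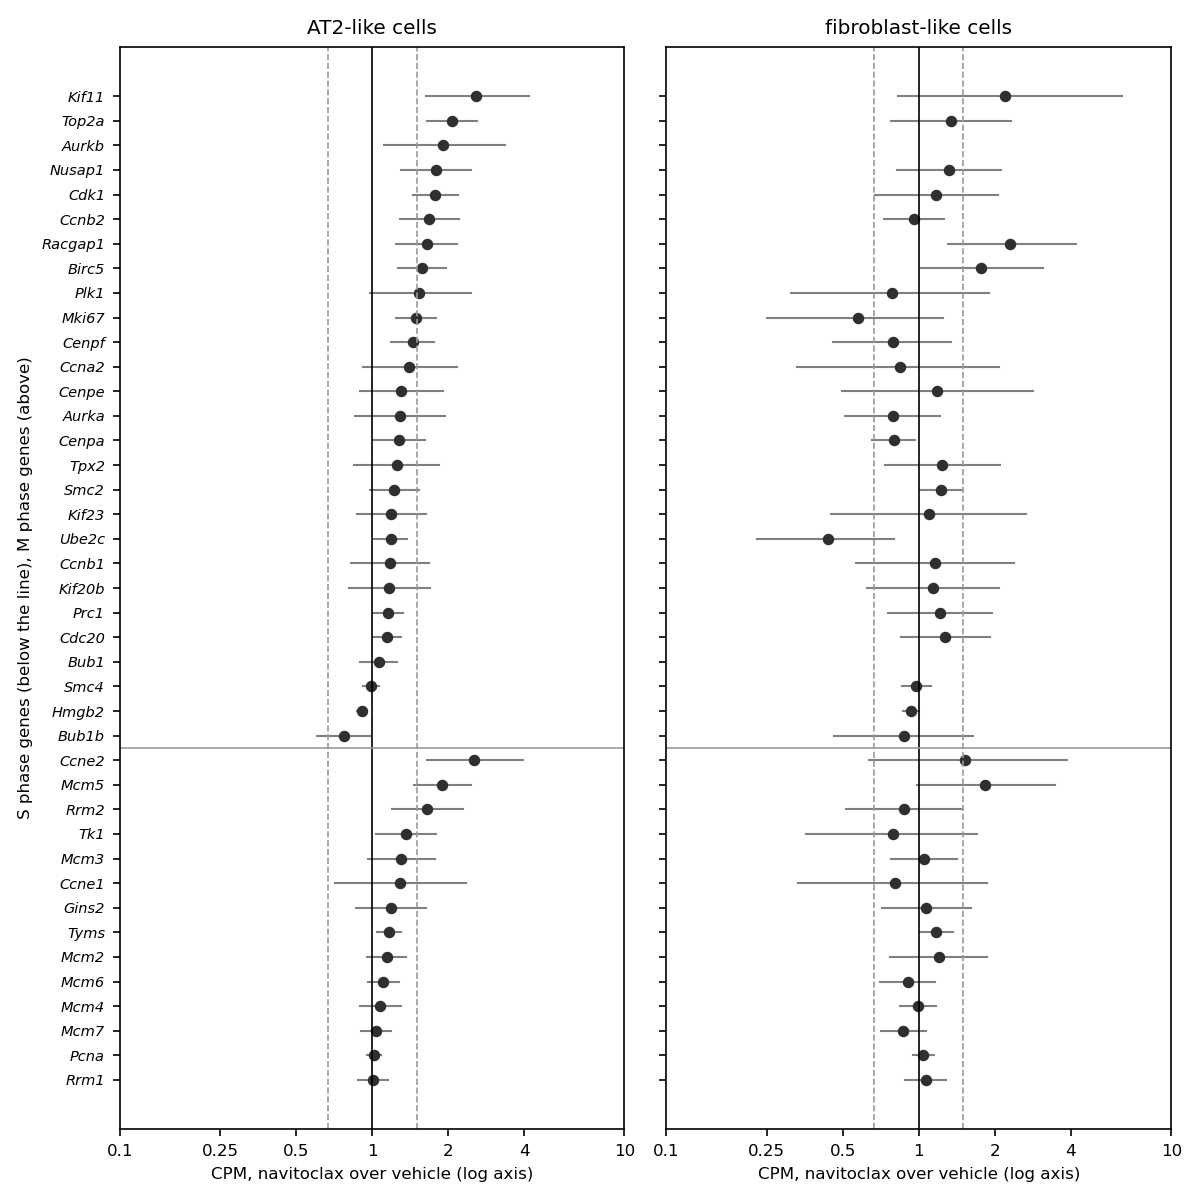
Level in the navitoclax library over that in the vehicle library (horizontal axis, CPM ratio, log) for each gene with at least 20 UMIs, in AT2-like cells (left) and fibroblast-like cells (right), with exact 95% counting intervals. The solid line is no difference and the dashed lines are 1.5-fold; 12 genes lie beyond the right dashed line and none beyond the left one in AT2-like cells, against 5 and 2 in fibroblast-like cells.

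Among the S phase genes of AT2-like cells, the cyclin gene Ccne2 and the helicase gene Mcm5 had the largest ratios. Ccne2 was at 0.595 CPM in vehicle and 1.502 CPM in navitoclax, 2.52-fold (1.65 to 3.95), from 31 and 80 UMIs. Mcm5 was at 1.75 and 3.31 CPM, 1.89-fold (1.46 to 2.46), with no more than 10 UMIs in any cell. The other helicase subunits had ratios of 1.30 (Mcm3), 1.14 (Mcm2), 1.11 (Mcm6), 1.08 (Mcm4) and 1.04 (Mcm7), all with intervals that included 1. Gins2 had a ratio of 1.19 and Ccne1 of 1.29, with intervals that included 1.

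Of the nucleotide-supply genes, Rrm2 was at 1.23 and 2.03 CPM, 1.65-fold (1.20 to 2.28), while its partner Rrm1 was at 8.34 and 8.39 CPM, 1.01-fold (0.880 to 1.15). Tk1 had a ratio of 1.36 (1.04 to 1.80) and Tyms of 1.17 (1.05 to 1.30). Pcna, the most abundant S phase gene, was at 35.4 and 36.1 CPM, 1.02-fold (0.956 to 1.09). The summed S phase level was 1.11-fold (1.07 to 1.15).

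Of the mitotic kinases and cyclins in AT2-like cells, Cdk1 was at 2.84 and 5.05 CPM, 1.78-fold (1.45 to 2.19), and its partner Ccnb2 at 1.75 and 2.95 CPM, 1.69-fold (1.29 to 2.21). Ccnb1 had a ratio of 1.17 (0.821 to 1.68) and Ccna2 of 1.40 (0.916 to 2.17). Aurkb had 22 and 43 UMIs, 1.91-fold (1.12 to 3.35), and Plk1 33 and 52 UMIs, 1.54-fold (0.977 to 2.46). Aurka had a ratio of 1.29 (0.856 to 1.95). Bub1 was at 1.06 (0.899 to 1.26), and Bub1b was lower in navitoclax, at 3.03 and 2.35 CPM, 0.774-fold (0.607 to 0.984).

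Of the chromosome and spindle genes, Kif11, the motor that separates spindle poles, had the largest ratio of the 41 genes, 2.57 (1.63 to 4.17), from 27 and 71 UMIs. Top2a was at 2.27 and 4.69 CPM, 2.07-fold (1.66 to 2.60), from 118 UMIs in 34 cells and 250 in 51. Nusap1 had a ratio of 1.79 (1.31 to 2.46) and Birc5 of 1.58 (1.27 to 1.97). Racgap1 had 1.64 (1.249 to 2.18), whereas its partner Kif23 had 1.19 (0.874 to 1.63). Mki67 was at 3.995 and 5.95 CPM, 1.49-fold (1.247 to 1.78), just inside the 1.5-fold bound, and Cenpf at 1.45-fold (1.19 to 1.77).

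Cenpa had a ratio of 1.28 (1.01 to 1.63), Ube2c 1.18 (1.02 to 1.37), Prc1 1.16 (1.01 to 1.32) and Cdc20 1.14 (1.01 to 1.30). The intervals of Cenpe (1.30), Tpx2 (1.251), Smc2 (1.23) and Kif20b (1.17) included 1. Smc4 was at 29.8 and 29.6 CPM, 0.992-fold (0.924 to 1.06). Hmgb2 was lower in navitoclax, at 96.0 and 87.4 CPM, 0.911-fold (0.875 to 0.948).

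These values mix 2 things, how many rich cells each library held and the level in the other cells. The M phase sum was 1.06-fold (1.03 to 1.09) higher in navitoclax AT2-like cells. Without the 11 and 19 cells with 8 or more M phase genes it was lower, 0.917-fold (0.888 to 0.947), at 149.7 and 137.3 CPM. Hmgb2 alone was then at 0.851-fold (0.815 to 0.887), from 4742 and 4099 UMIs. Over the 25 M phase genes other than Hmgb2 and Smc4 the sum was 1.32-fold (1.26 to 1.38) higher with all cells and 1.05-fold (0.982 to 1.13), from 1541 and 1650 UMIs, without the rich cells. The S phase sum kept its direction without the rich cells, at 1.06-fold (1.02 to 1.11). Without the rich cells 34 genes had at least 20 UMIs, and 27 of them were higher in navitoclax. Their median log2 ratio was 0.16, against 0.01 over all genes. By over 1.5-fold, 9 were higher, where 5.61% of all genes were, and none lower, where 2.02% were. Of the 12 genes past the fold with all cells, 7 were among these 9, namely Ccne2 at 2.86-fold (1.74 to 4.88), Mcm5 at 1.82-fold (1.37 to 2.42), Rrm2, Cdk1, Ccnb2, Kif11 and Racgap1. The intervals of Ccne2, Mcm5 and Rrm2 (1.22 to 7.31) lay above 1, and those of Cdk1, Ccnb2, Kif11 and Racgap1 included it. The other 5 were no longer called, with ratios of 1.36 for Top2a and 1.06 for Birc5, and with under 20 UMIs left for Nusap1 (8 and 7), Plk1 (9 and 7) and Aurkb (4 and 2). Aurka and Ccne1 joined, each with an interval that included 1. The rich cells were chosen by these same M phase genes, and the library with more of them loses more.

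In fibroblast-like cells 39 of the 41 genes had at least 20 UMIs. Of these 22 were higher and 17 lower in navitoclax, with a median log2 ratio of 0.09 against 0.01 over all genes, of which 51.3% were higher. Past 1.5-fold, 5 were higher, where 4.48% of all 13558 genes were, and 2 lower, where 2.61% were. The S phase sum was 1.04-fold (0.978 to 1.10) and the M phase sum 0.971-fold (0.923 to 1.02), and both intervals included 1. Without the 1 and 3 rich cells the M phase sum was 0.914-fold (0.866 to 0.965), and of 31 genes with at least 20 UMIs Mcm5, Ccne2 and Racgap1 were higher past 1.5-fold, where 4.46% of all genes were, and Cenpf and Ube2c lower, where 2.6% were. With a stricter margin between the best class and the next, the M phase sum was 0.921-fold (0.873 to 0.972), and 37 genes had at least 20 UMIs. Past 1.5-fold, 4 of them were higher, where 4.26% of all genes were, and 6 lower, where 2.71% were.

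Named by level, the S phase genes of fibroblast-like cells differed little. Pcna was at 32.6 and 33.9 CPM, 1.04-fold (0.944 to 1.15), and Tyms at 13.3 and 15.6 CPM, 1.17-fold (1.01 to 1.36). Mcm4 was at 11.99 and 11.9 CPM, Rrm1 at 8.81 and 9.37, Mcm7 at 8.42 and 7.29 and Mcm6 at 5.63 and 5.09 CPM, all with ratio intervals that included 1. The same held for Mcm3 (1.05-fold), Gins2 (1.07-fold), Mcm2 (1.20-fold) and Rrm2 (0.874-fold). Past the fold were Mcm5, with 18 and 30 UMIs, 1.82-fold (0.983 to 3.47), and Ccne2, with 10 and 14 UMIs, 1.53-fold (0.632 to 3.85).

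Of the M phase genes of fibroblast-like cells, Racgap1 had 19 and 40 UMIs, 2.30-fold (1.30 to 4.20), in 13 and 27 cells, and was at 2.40 without the cell with the most cell cycle UMIs in each library and at 2.04 (1.05 to 4.11) without the 4 rich cells. Birc5 had 23 and 37 UMIs, 1.76-fold (1.02 to 3.10), and was at 1.46 without the top cell of each library and at 1.00 (0.401 to 2.48), from 12 and 11 UMIs, without the 4 rich cells. Kif11 had 7 and 14 UMIs, 2.18-fold (0.825 to 6.40). Ube2c had 40 and 16 UMIs, 0.437-fold (0.228 to 0.798), but 25 of the 40 vehicle UMIs lay in 1 cell, and the ratio was 1.02 without the top cells but 0.583 (0.214 to 1.47), from 15 and 8 UMIs, without the 4 rich cells. Mki67 likewise had 21 and 11 UMIs, 0.572-fold (0.249 to 1.24), with 15 of 21 in 1 cell, and was at 1.46 without the top cells but 0.547 (0.0885 to 2.56), from 6 and 3 UMIs, without the rich ones.

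Cenpa was lower in navitoclax fibroblast-like cells, at 0.795-fold (0.653 to 0.964), and this did not rest on the top cells, without which it was 0.745. Smc2 was at 7.84 and 9.58 CPM, 1.22-fold (1.01 to 1.49), and Hmgb2 at 63.8 and 59.4 CPM, 0.930-fold (0.866 to 1.00). Smc4 was at 0.977-fold and Ccnb2 at 0.956-fold. Aurka (0.789), Cenpf (0.789), Cdc20 (1.27), Cdk1 (1.17), Nusap1 (1.31), Prc1 (1.21), Top2a (1.34) and Tpx2 (1.24) had intervals that included 1.

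In ciliated-like cells 19 genes had at least 20 UMIs, 4 were higher past 1.5-fold, where 4.23% of all genes were, and 3 lower, where 3.52% were. Higher were Mcm2 with 4 and 20 UMIs (3.48-fold, 1.17 to 14.0), Cdc20 with 8 and 28 (2.44-fold, 1.08 to 6.19), Smc2 with 18 and 47 (1.82-fold, 1.04 to 3.33) and Rrm2 with 7 and 18 (1.79-fold, 0.714 to 5.07). Of the 28 navitoclax UMIs of Cdc20, 17 lay in 1 cell. Lower were Gins2 with 20 and 12 (0.418-fold, 0.186 to 0.898), Kif23 with 48 and 41 (0.595-fold, 0.382 to 0.922) and Mki67 with 13 and 12 (0.643-fold, 0.268 to 1.53).

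Secretory-like cells show what 1 cell can do to such a comparison. The M phase sum was 186.6 CPM in 65 vehicle cells and 59.0 CPM in 35 navitoclax cells, 0.316-fold (0.256 to 0.387). One vehicle cell held 463 of the 677 M phase UMIs (68.4%), together with 36221 UMIs of secretory markers and 677 of AT2 markers, and without the top cell of each library the ratio was 0.889. Of 11 genes with at least 20 UMIs, 8 were lower past 1.5-fold (Tyms, Cdk1, Ccnb2, Cenpa, Ube2c, Cdc20, Hmgb2 and Prc1), where 12.3% of all genes were, and none higher, where 8.52% were. Ube2c had 65 and 1 UMIs, Cdk1 37 and 1, Tyms 30 and 8, Cdc20 27 and 2, Prc1 23 and 0, Cenpa 22 and 1 and Ccnb2 21 and 0. Hmgb2 had 226 and 67. The ratio of Hmgb2 went from 0.571 to 0.960 without the top cells and that of Cdc20 from 0.143 to 1.92.

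In mesothelial-like cells, with 59 and 29 cells, 3 genes had at least 20 UMIs, of which Smc4 was higher past 1.5-fold (1.92, 0.766 to 4.74), where 10.7% of all genes were, and Pcna (0.665, 0.240 to 1.61) and Hmgb2 (0.639, 0.293 to 1.28) lower, where 13.6% were. Among the 375 and 357 cells without a class, 10 of 22 genes were higher past 1.5-fold, where 7.2% of all genes were, and 2 lower (Mcm7 0.598 and Tyms 0.582), where 8.57% were. Higher were Rrm1 (2.34), Mki67 (3.54), Top2a (2.09), Cdk1 (4.39), Ccnb2 (2.08), Birc5 (3.86), Nusap1 (7.64), Ube2c (5.70), Cdc20 (2.55) and Prc1 (2.55). One navitoclax cell without a class held all 27 M phase genes and 57.9% of the M phase UMIs of that group. Without the top cell of each library Ube2c was at 0.143, Cdk1 at 0.571 and Rrm1 at 2.21. In AT1-like and in smooth muscle- or pericyte-like cells no gene was past 1.5-fold, and the 2 genes with the most UMIs are given. In AT1-like cells Smc4 had 100 and 35 UMIs, 1.04-fold (0.689 to 1.55), and Hmgb2 77 and 25, 0.969-fold (0.591 to 1.54). In smooth muscle- or pericyte-like cells Hmgb2 had 23 and 19 UMIs, 0.908-fold (0.468 to 1.74), and Pcna 16 and 15, 1.03-fold (0.475 to 2.23).

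Other genes of the cell cycle were read from lists beside the 41. Of all genes, 6.11% were higher and 1.96% lower past 1.5-fold in AT2-like cells, and 4.48% and 2.61% in fibroblast-like cells, as given above for the 41. Of 42 other mitosis genes, 41 had at least 20 UMIs in AT2-like cells, 10 were higher past 1.5-fold and none lower, with a median log2 ratio of 0.33. The largest ratios among those with at least 50 UMIs were for Kif2c (2.14, 1.15 to 4.14), Kif22 (1.90, 1.35 to 2.70), Nuf2 (1.70, 0.938 to 3.16) and Pbk (1.69, 1.18 to 2.43). Several of these mitosis genes lay in the same few cells as the 41 and are not separate from them. Pbk had 94.1% and 95.9% of its UMIs in the 1% of AT2-like cells with the most M phase UMIs. The lists were not recomputed without the rich cells. Of 26 other replication genes, 25 passed, 1 was higher past the fold and none lower, with a median of 0.16. This was Uhrf1 (1.64, 1.01 to 2.72), and Gins1 (1.44) and Pola1 (1.35, 1.01 to 1.82) were also higher. A further list held 10 genes, of histone variants, chromatin proteins and tubulins, with Stmn1, Ran and Ranbp1. None of them was past the fold, and the largest ratio was for Hmgn2 (1.17, 1.09 to 1.27).

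Of 30 regulators 28 passed in AT2-like cells, 3 were higher past the fold and none lower, with a median of 0.10. E2f7 was one of the 3, with 4 and 16 UMIs. Mybl2, the gene of B-MYB, had 14 and 29 UMIs, 2.03-fold (1.04 to 4.15). Fbxo5 (Emi1), an inhibitor of the anaphase-promoting complex, was at 1.53-fold (1.18 to 1.998), Foxm1 at 1.24 (0.850 to 1.82) and E2f1 at 1.24 (0.899 to 1.73). The cyclin-dependent kinase inhibitor gene Cdkn1a (p21) was at 148.2 and 108.9 CPM, 0.735-fold (0.710 to 0.760), and Cdk6 at 0.724-fold (0.603 to 0.868).

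In fibroblast-like cells Cdkn1a lay the other way, at 231.8 and 279.0 CPM, 1.20-fold (1.16 to 1.247). The difference between the classes was not tested. The related inhibitor gene Cdkn1c (p57) was at 87.9 and 65.8 CPM, 0.749-fold (0.702 to 0.799). E2f1 was at 1.23-fold (1.01 to 1.502), Mybl2 had 8 and 7 UMIs and Foxm1 21 and 14. Of the other mitosis genes 31 passed there, 5 higher (Aspm, Cdca3, Cdca8, Hmmr and Espl1) and 1 lower (Ttk, 22 and 13 UMIs) past the fold, with a median of −0.01. Espl1 was at 1.87 (1.06 to 3.38), Cdca8 at 1.78 (1.04 to 3.09) and Anln at 1.43 (1.06 to 1.92). Hjurp, the chaperone of the Cenpa protein, was at 32.2 and 42.0 CPM, 1.30-fold (1.19 to 1.43). Of the regulators 26 passed, none higher and 2 lower, among them Wee1 with 41 and 24 UMIs (0.639, 0.370 to 1.08). The other was E2f2 with 23 and 11 UMIs, named although under 50 UMIs. Lin9, a MuvB subunit, was at 1.40-fold (1.05 to 1.89) and Tfdp1, an E2F partner, at 0.720-fold (0.434 to 1.18). Of the other replication genes 23 passed, 1 higher past the fold (Chek1, 11 and 22 UMIs) and 2 lower, Hells at 0.613-fold (0.351 to 1.05) and Cdc45 at 0.655-fold (0.363 to 1.16). None of the 10 genes on the list with histone variants, tubulins, Stmn1 and Ran was past the fold in fibroblast-like cells. Ran was at 1.21-fold (1.16 to 1.27) there and Stmn1 at 0.848-fold (0.782 to 0.9198).

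Genes outside the 41 that were most like the mitotic ones were ranked by their share in the 1% of AT2-like cells with the most M phase UMIs, taking the lower of the 2 libraries. Melk (100% and 97.1%), Ckap2l (100% and 94.5%), Cep55 (100% and 94.4%), Pbk (94.1% and 95.9%), 2810417H13Rik (94.1% and 93.1%) and Cdkn3 (90.8% and 87.5%) came first. Of 12281 genes with at least 20 UMIs in each library, 49 had over 25% in both, and 24 of these were on the lists above.

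For 9 of the 41 genes the annotation (GENCODE M21, GRCm38) places a protein-coding gene on the opposite strand that overlaps them, namely Ccna2, Ccne2, Cdc20, Gins2, Mcm7, Nusap1, Prc1, Tk1 and Ube2c. None overlaps one on its own strand. The sources used here do not say whether the counting used strand, so values of these 9 genes are uncertain to that extent.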

How the data were processed

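The authors deposited raw UMI counts per gene and cell barcode, made with Cell Ranger 4.0.0 per the file headers, with mm10 named in the submitters' processing notes. The sources used here give no further settings, such as strand use. The counts covered 2 libraries, 1 per group, with 97958947 and 98517048 UMIs. From these counts, cells were kept if they had 500 or more genes and no more than 15% mitochondrial UMIs, and Scrublet doublets (expected 6%) were removed. Cells were gated on marker scores with a floor of 0.25 and a margin of 0.1, values and scoring that were set after the data had been seen. UMIs of each gene were summed per class and library and divided by all UMIs of the class (CPM). Intervals were exact Poisson, conditional exact for ratios, Clopper-Pearson for shares and Newcombe for differences of shares, all 95% and for counting error only. A gene was called past 1.5-fold among genes with at least 20 UMIs over both libraries, and no p-value was computed. The UMIs of cells tied in a ranking were split over the tied cells. Free RNA was not subtracted. The calculations were tested on simulated data and used python 3.11.15, numpy 2.4.6, scipy 1.17.1, pandas 2.3.3 and scanpy 1.11.5. Genes were named when they had at least 50 UMIs in AT2-like or fibroblast-like cells, or were past the fold in other classes, or the 2 with the most UMIs where none was. From the other lists up to 4 genes with at least 50 UMIs and the largest ratios were named, with Cdkn1a, Foxm1, Mybl2 and E2f1. One gene that this rule names is not reported here. The members, lists and rules were chosen with earlier results of these data known. Alternatives changed the doublet removal, the mitochondrial limit, the gate margin, the scaling, the depth, the minimum, the fold and the share of top cells.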

Additional observations from a re-analysis of the deposited data

Results flagged for a closer look

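For 3 of the 41 genes the counting intervals of the navitoclax-to-vehicle ratio lay above 1 in AT2-like and below 1 in fibroblast-like cells. Cenpa was at 1.28 (1.01 to 1.63) in AT2-like and 0.795 (0.653 to 0.964) in fibroblast-like cells, and at 1.06 (0.663 to 1.71) and 0.736 (0.601 to 0.901) without the cells with 8 or more M phase genes. Ube2c was at 1.18 (1.02 to 1.37) and 0.437 (0.228 to 0.798), and in fibroblast-like cells at 1.02 without the cell with the most cell cycle UMIs in each library. Without the cells with 8 or more M phase genes Ube2c was at 0.829 (0.399 to 1.70) and 0.583 (0.214 to 1.47). Aurkb was at 1.91 (1.12 to 3.35) and 0.168 (0.0184 to 0.742), the latter from 13 and 2 UMIs and at 0.437 without the top cell of each library. Without the cells with 8 or more M phase genes it had 4 and 2 UMIs in AT2-like and 5 and 0 in fibroblast-like cells. In AT2-like cells none of the 3 intervals lay above 1 without those cells. No conclusion follows, since those cells were chosen by these same M phase genes and held most AT2-like UMIs of the 3. The difference between the classes was not tested, since each treatment was 1 library.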

How the results depend on the processing

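Of 142 values recomputed for 18 results, 93 stayed within the reported value's interval or, for counts, within 1.5 times it. The alternatives without the rich cells, without Hmgb2 and Smc4, and without both were chosen after seeing the data. The M phase sum of AT2-like cells (log2 ratio 0.09) turned to −0.13 without the cells with 8 or more M phase genes and was 0.40 without Hmgb2 and Smc4. That of fibroblast-like cells (−0.04) was −0.13 and 0.039 under these 2, and −0.12 with the stricter gate margin. The S phase sum of AT2-like cells (0.15) was 0.25 after thinning to 2000 UMIs and 0.089 without the rich cells, and that of fibroblast-like cells (0.05) was 0.16 after thinning. After thinning, 18 of 24 genes were higher in navitoclax AT2-like cells and 8 of 15 in fibroblast-like cells. The share of all genes that were higher was not computed at that depth. Past the fold, 7 were higher and 1 lower in AT2-like cells, where 4.39% and 3.44% of all genes were. In fibroblast-like cells 0 were higher and 2 lower past it, where 4.42% and 3.1% of all genes were. At a fold of 5/4, 22 were higher and 1 lower in AT2-like cells, where 11.9% and 5.71% of all genes were, and 8 and 7 in fibroblast-like cells, where 11.0% and 7.43% were. In fibroblast-like cells the 5 higher became 2 of 26 with at least 50 UMIs, where 2.53% of all genes were higher. They became 3 of 31 without the rich cells, where 4.46% were, and 7 of 33 without the top cells, where 4.52% were. The 2 lower became 6 of 37 with the stricter margin, where 2.71% of all genes were lower. They became 1 of 33 without the top cells, where 2.57% were, and 1 of 26 with at least 50 UMIs, where 1.3% were.

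The share of M phase UMIs in the top cells of AT2-like cells (24.3% vehicle, 34.3% navitoclax) was 23.2% and 32.8% with doublets kept, 18.5% and 25.1% after thinning, 33.7% and 43.2% for the top 5%, 4.16% and 4.84% without the rich cells, and 58.0% and 65.6% without Hmgb2 and Smc4. In fibroblast-like cells (15.0% and 18.8%) it was 30.2% and 33.2% for the top 5%, 7.17% and 6.22% without the rich cells, 32.6% and 36.6% without the 2 genes, and 15.1% in navitoclax with the stricter margin. The thinned share of cells with at least 3 M phase genes (0.392% and 0.549% in AT2-like, 0.130% and 0.158% in fibroblast-like cells) was 2.57%, 3.06%, 1.65% and 0.988% for at least 2 genes and 16.2%, 19.5%, 2.73% and 3.08% unthinned. For at least 5 genes it was 0.178% and 0.353% in AT2-like and 0.0324% and 0.0790% in fibroblast-like cells. The cause of these shifts was not tested. No paired analysis was possible because each group was 1 library.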

Other observations

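Cells left out by the filters also held some M phase genes together. Of the cells called doublets, 0 of 222 in vehicle (3 counts of the total allow a share of up to 1.35%) and 2 of 217 in navitoclax held 8 or more M phase genes. Of the barcodes outside the mitochondrial or gene limit, 3 of 1388 in vehicle and 2 of 1619 in navitoclax did, with medians of 1427 and 1985 UMIs over all such barcodes.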
